A study of Mus musculus with 3 samples.

Results

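Immediate-early and heat-shock genes were followed in mouse knee synovium and infrapatellar fat pad. The 38 genes, of 32285 in each count matrix, are 27 immediate-early genes and 11 heat-shock genes, chosen by symbol and described apart because both groups can respond to the digestion of a tissue as well as to its state. All 38 were present in the 3 matrices. Immediate-early genes are transcribed within minutes of a growth factor, stretch or stress signal, without new protein having to be made first. Kinase cascades activate factors that already sit at their promoters, such as SRF with its partners and CREB, and many of the products are themselves transcription factors or brakes on the same kinases. Heat-shock genes encode chaperones that hold or refold other proteins, and HSF1 activates the stress-inducible ones through repeats of the letters GAA in alternating direction. In dissociated tissue, warm enzyme incubation is known to raise both groups.

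The study profiled cells of wild-type mice by droplet single-cell RNA sequencing at the 3′ end. The control mice were 2 months old. The other groups had destabilisation of the medial meniscus (DMM), an operation that leads to osteoarthritis of the knee, at 2 months of age and were taken 1 week or 2 months later, so the last group was also the oldest. Each group was 1 library made from the pooled tissue of 5 to 10 mice. Per the labels, trypsin (0.25%, 30 min) was followed by collagenase I (300 U/mL, 30 min), and only live cells from the collagenase step were sorted. The sources used here do not give whether a sham was operated, which sex the mice were, how long cells waited before lysis or when each digestion was done. With 1 library per group there is no test between groups. Every interval below is a 95% interval for counting error only, and the operation, the handling of a library, the pool of mice and, at 2 months, age cannot be told apart.

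A cell was kept when it showed 500 genes or more and when mitochondrial unique molecular identifiers (UMIs, 1 per captured transcript) were 10% of its total or less. This left 8099 control, 12316 1-week and 9782 2-month cells. Median depth was 10871, 12919 and 13543 UMIs per cell, and the median mitochondrial share was 1.79%, 3.51% and 3.41%. The libraries shared 21 to 30 cell barcodes in pairs. Fibroblasts, the matrix-making cells of the tissue, were cells with a UMI of Pdgfra and none of Ptprc or Cdh5 (3781, 4748 and 5317 cells). Endothelium, the lining of blood vessels, had a UMI of Cdh5 and none of Ptprc (1270, 1784 and 1157 cells). Mural cells, the pericytes and smooth muscle cells around vessels, had a UMI of Notch3 and none of Pdgfra, Ptprc or Cdh5 (694, 711 and 423 cells). Macrophages had at least 3 UMIs of C1qa (1101, 1969 and 894 cells). Levels are given in CPM, the summed UMIs of a gene in a class per 1000000 UMIs of that class. The 7 or 8 marker genes checked for each class all reached 20 CPM in it in each library. Between 32 and 84 cells per library belonged to more than 1 class. Markers of other cell types were present in these gates at levels that differed between libraries, and their values are given with each class.

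The 27 immediate-early genes together were lower at 1 week than in the control in each of the 4 classes. Their summed level in fibroblasts was 17712 CPM in the control, and 9879 and 12110 at 1 week and 2 months. In endothelium it was 25116, 12584 and 19843 CPM. Macrophages held 20636, 9343 and 16100 CPM. So in these 3 classes the control was highest, the 1-week library lowest and the 2-month library in between. In mural cells the order differed, with 13294 CPM in the control, and 10554 and 17535 at 1 week and 2 months, the highest of the 3. The ratio to the control at 2 months was 0.684 (0.682 to 0.686) in fibroblasts, 0.790 (0.786 to 0.794) in endothelium, 0.780 in macrophages and 1.32 (1.31 to 1.33) in mural cells.

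Summed, the 11 heat-shock genes were also highest in the control and lowest at 1 week, but their 2-month sums lay close to the 1-week sums. Their summed level in fibroblasts was 3961 CPM in the control, and 3045 and 3111 at 1 week and 2 months. Endothelium held 7908, 4481 and 4534 CPM, and macrophages 7645, 3180 and 3474 CPM. In mural cells the sums were 5033, 4323 and 4558 CPM. There the genes were split at 1 week, 5 above and 6 below the control, with a median log2 ratio of -0.04. Hspb1 alone went from 1176 to 441 CPM in them. In each class the heat-shock sums of the operated libraries were close to each other and below the control. The 2-month to 1-week ratio of sums was between 1.01 and 1.09 for heat-shock genes, and between 1.23 and 1.72 for immediate-early genes. The plot of summed levels shows these 2 shapes side by side.

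**Figure D1:**
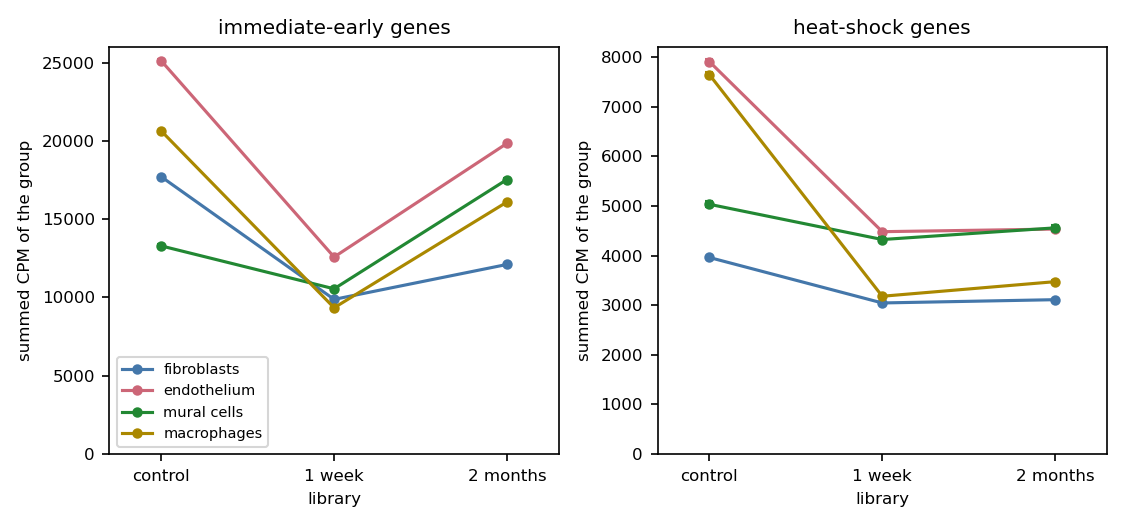
Summed CPM of the 27 immediate-early genes (left) and the 11 heat-shock genes (right) in the control, 1-week and 2-month libraries, 1 line per cell class, with 95% counting intervals that are mostly smaller than the points. Immediate-early sums reach their lowest value at 1 week and are higher at 2 months, in mural cells above the control (17535 against 13294 CPM), whereas heat-shock sums in macrophages stay near 3180 and 3474 CPM in the operated libraries against 7645 CPM in the control.

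A gene was called higher or lower when its CPM differed at least 2-fold between libraries and the sums together held at least 50 UMIs, which all 38 genes reached in every class and comparison. In fibroblasts at 1 week, 7 immediate-early and 3 heat-shock genes were called lower and none higher, where 10.6% of all 14582 genes compared were called lower and 11.6% higher. At 2 months 1 gene of each group was called lower and none higher, against 4.15% lower and 5.44% higher of all genes, so the count of called immediate-early genes was near that of all genes. The direction was more one-sided than the calls: 21 of 27 immediate-early genes were below the control at 1 week and 24 at 2 months, and 10 of 11 heat-shock genes at both times, where 48.2% and 47.3% of all genes were below it. The median log2 ratio was -0.60 at 1 week and -0.46 at 2 months for immediate-early genes and -0.50 and -0.44 for heat-shock genes, beside 0.02 for all genes both times. Between 1 week and 2 months, no immediate-early gene was called higher and 2 lower, and 1 heat-shock gene was called higher, against 8.86% and 8.31% of all genes. In the fibroblast gate the 5 chondrocyte markers summed to 2.54, 405 and 33.8 CPM, with 0, 3 and 0 at 20 CPM or more, and the 8 macrophage markers to 155, 67.9 and 50.4 CPM, with 3, 0 and 0 at that level. Their part in the result was not tested.

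In endothelium at 1 week, 13 of 27 immediate-early genes were called lower and 1 higher, and 4 of 11 heat-shock genes lower, against 8.38% lower and 7.70% higher of all genes. At 2 months 2 immediate-early and 3 heat-shock genes were called lower and none higher, against 2.82% and 3.72%. From 1 week to 2 months 7 immediate-early and 2 heat-shock genes were called higher and none lower, against 6.93% higher and 5.21% lower. Median log2 ratios to the control were -0.97 and then -0.32 for immediate-early genes, -0.72 and then -0.59 for heat-shock genes, and 0.02 and 0.06 for all genes. In the endothelial gate, which does not exclude Pdgfra, the 7 fibroblast markers summed to 7514, 16037 and 6433 CPM in the control, 1-week and 2-month libraries. The 7 endothelial markers summed to less in each library, at 3362, 3726 and 3989 CPM. The 4 haemoglobin genes summed to 2138, 381 and 384 CPM. All of these genes were at 20 CPM or more in each library. The part of fibroblast and haemoglobin RNA in the result was not tested.

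In macrophages at 1 week 15 immediate-early genes were called lower and 1 higher, and 5 heat-shock genes lower, against 9.96% lower and 8.66% higher of all genes. At 2 months 1 immediate-early gene but 6 heat-shock genes were called lower, and none higher, against 3.93% lower and 3.96% higher. Between the operated libraries 10 immediate-early genes were called higher at 2 months and 1 lower, and 2 heat-shock genes higher, against 7.30% higher and 6.13% lower. The median log2 ratio to the control went from -1.03 at 1 week to -0.09 at 2 months for immediate-early genes and from -0.89 to -1.02 for heat-shock genes, beside -0.06 and 0.01 for all genes. In the macrophage gate the 7 fibroblast markers summed to 3804, 8852 and 4514 CPM, with 6, 7 and 6 of them at 20 CPM or more. The 6 neutrophil markers summed to 90.4, 811 and 5147 CPM, with 2, 6 and 6 at that level. The part of these cells in the result was not tested.

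In mural cells at 1 week 4 immediate-early genes were called higher and 3 lower, and 2 heat-shock genes lower, against 13.1% higher and 11.7% lower of all genes, which is no clear excess in either direction. The median log2 ratio was 0.00 for immediate-early genes, with 13 above and 14 below the control. It was -0.04 for heat-shock genes and 0.00 for all genes. Over the class as a whole the lower 1-week sums were thus not a shift of either group, but the subsets given below differed. At 2 months 4 immediate-early genes were called higher and none lower, and no heat-shock gene was called, against 4.96% higher and 3.39% lower. In that comparison 25 of 27 immediate-early genes were above the control, against 49.2% of all genes, with a median log2 ratio of 0.43 beside -0.01 for all genes. From 1 week to 2 months 6 immediate-early and 3 heat-shock genes were called higher and 2 immediate-early genes lower, against 8.19% and 7.79%. In the mural gate the fibroblast markers summed to 2954, 14970 and 5193 CPM, with 6 of 7 at 20 CPM or more in each library and Pdgfra at 0 by the gate, while the mural markers summed to 20788, 11005 and 17277 CPM. The 8 macrophage markers summed to 593, 80.1 and 133 CPM, with 6, 1 and 3 at 20 CPM or more and Ptprc at 0 by the gate. The haemoglobin genes summed to 299, 1124 and 1438 CPM, with 3, 4 and 4 of 4 at that level. The part of these cells in the mural result was not tested. The comparisons of the operated libraries with the control share that control library, and the classes share each library, so none of these counts is independent of the others. The heat map of log2 ratios holds every gene.

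**Figure D2:**
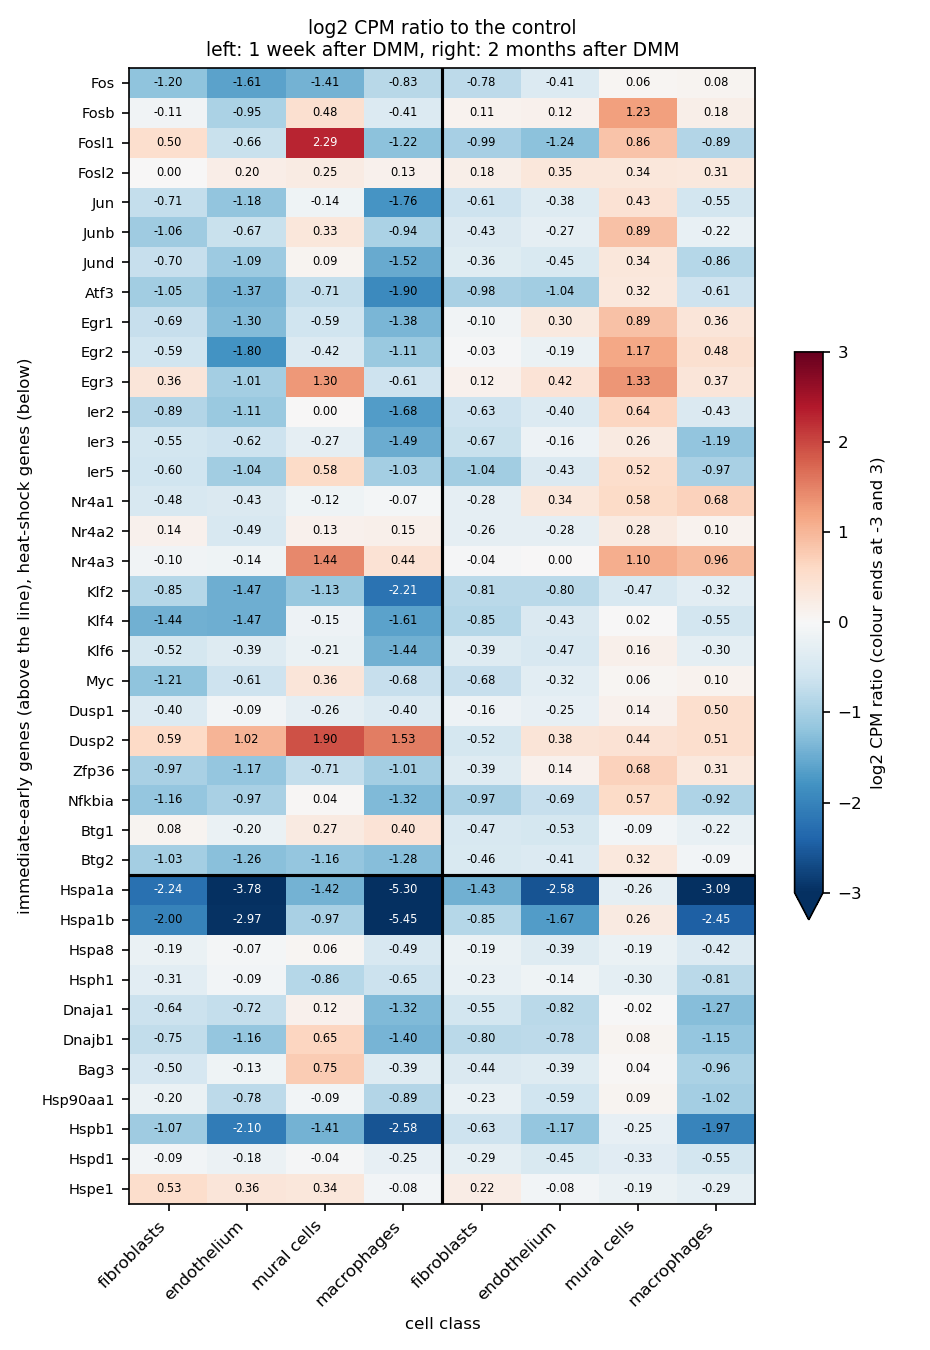
log2 CPM ratio of each of the 38 genes to the control, at 1 week (left 4 columns) and 2 months (right 4 columns), by cell class; blue is lower and red is higher than the control, colours end at -3 and 3, and the numbers are the log2 ratios. At 1 week the map is mostly blue outside mural cells, Dusp2 is red in all 4 classes at 1 week, and Hspa1a in macrophages reaches -5.30 at 1 week and -3.09 at 2 months.

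AP-1, the dimeric transcription factor built from Fos, Jun and ATF proteins, was the largest family, with 8 genes. Fos, the founding Fos subunit (chromosome 12, 85473890 to 85477273, plus strand, GRCm38), made up 19.9% of immediate-early UMIs in control fibroblasts. Its level there was 3529 CPM in the control, and 1535 and 2050 at 1 week and 2 months, in endothelium 3650, 1198 and 2750 CPM, in mural cells 3214, 1211 and 3346 CPM, and in macrophages 1486, 837 and 1565 CPM. Fos was thus lowest at 1 week in every class. The 1-week ratio was 0.435 (0.432 to 0.438) in fibroblasts, 0.328 (0.324 to 0.333) in endothelium, 0.377 (0.368 to 0.386) in mural cells and 0.563 in macrophages. At 2 months Fos was below the control in fibroblasts and endothelium and slightly above it in mural cells (1.04) and macrophages (1.05). Jun, the founding Jun subunit, showed its widest difference in macrophages, with 1490, 441 and 1018 CPM, a ratio of 0.296 (0.289 to 0.303) at 1 week. In endothelium Jun was at 2175, 957 and 1675 CPM, and in fibroblasts at 1540, 942 and 1008 CPM. In mural cells as a whole Jun was close to the control at 1 week (1257 against 1138 CPM) and highest at 2 months (1690 CPM).

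The related subunits did not all behave alike. Junb, which can oppose Jun in dividing cells, was at 1533, 733 and 1135 CPM in fibroblasts. In mural cells as a whole it went in the opposite direction, at 1165, 1461 and 2156 CPM. Jund, the most constantly expressed Jun protein, was called lower at 1 week in endothelium (1810, 853 and 1323 CPM) and macrophages (1836, 640 and 1014 CPM). Atf3 is a stress-induced repressor of the same family. Its levels were 594, 286 and 302 CPM in fibroblasts, 1118, 431 and 544 CPM in endothelium and 1318, 353 and 863 CPM in macrophages, but 718, 440 and 896 CPM in mural cells. Atf3 was called lower at 1 week in those first 3 classes and at 2 months in endothelium. Fosb, which is spliced into a full and a truncated activator, was near the control in fibroblasts (575, 534 and 619 CPM) and was called higher in mural cells at 2 months, with 388, 542 and 914 CPM and a ratio of 2.35 (2.24 to 2.48). Fosl1, a late-appearing Fos relative, was rare. It stood at 3.34, 16.3 and 6.07 CPM in mural cells (19, 143 and 32 UMIs), a 1-week ratio of 4.87 (3.01 to 8.33), and at 19.2, 8.24 and 10.3 CPM in macrophages, a ratio of 0.430 (0.352 to 0.523). In fibroblasts Fosl1 was at 11.8, 16.7 and 5.95 CPM. Fosl2, the other late Fos relative, was called in no comparison, with ratios to the control from 1.00 to 1.27.

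The EGR zinc-finger factors, direct targets of SRF, had median log2 ratios to the control at 2 months of -0.03 in fibroblasts, 0.30 in endothelium, 1.17 in mural cells and 0.37 in macrophages. Egr1, an activator of growth and matrix genes, was at 1344, 833 and 1256 CPM in fibroblasts and 1391, 564 and 1709 CPM in endothelium. Mural cells held 719, 477 and 1335 CPM of it, and macrophages 615, 237 and 789 CPM. Its 2-month level exceeded the control in endothelium (ratio 1.23), mural cells (1.86, 1.79 to 1.93) and macrophages (1.28), and was 0.935 of it in fibroblasts. From 1 week to 2 months Egr1 was 3.03 times higher in endothelium, 2.80 in mural cells and 3.33 in macrophages. Egr2, known from myelin and T-cell biology, was a low-level gene with the same shape in endothelium (28.1, 8.05 and 24.6 CPM), macrophages (14.3, 6.63 and 19.9 CPM) and mural cells (16.2, 12.1 and 36.4 CPM). Egr3, a relative induced by calcium signals, differed between classes at 1 week, at 78.2, 38.8 and 104 CPM in endothelium and 16.2, 39.8 and 40.6 CPM in mural cells. The mural ratio for Egr3 at 1 week was 2.46 (1.95 to 3.13), and 1.37 with every cell thinned to 2000 UMIs.

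Krüppel-like factors, which keep endothelium and myeloid cells quiescent, were among the lowest genes at 1 week. Klf2, the flow-responsive member, was at 1498, 541 and 861 CPM in endothelium and 778, 169 and 624 CPM in macrophages. The macrophage ratio at 1 week was 0.217 (0.209 to 0.225). In fibroblasts Klf2 was at 698, 388 and 397 CPM, the same in both operated libraries within 1.02-fold, and in mural cells at 453, 207 and 327 CPM. Klf4, a relative that restrains inflammation and smooth muscle identity, was at 1181, 437 and 654 CPM in fibroblasts, 1343, 485 and 1000 CPM in endothelium and 997, 327 and 679 CPM in macrophages, while mural cells differed little (353, 317 and 357 CPM). Klf6, induced in many injuries, was called only in macrophages, at 1055, 388 and 859 CPM. Myc, the growth regulator, was called in fibroblasts at 1 week, with 101, 43.9 and 63.2 CPM and a ratio of 0.432 (0.415 to 0.451).

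The IER genes, short early transcripts of mixed function, were lower at 1 week in macrophages in all 3 cases. Ier3, which modulates cell survival under stress, was at 1653, 589 and 725 CPM there, and was the 1 immediate-early gene called lower in macrophages at 2 months (ratio 0.438, 0.427 to 0.450). Ier2 was at 382, 120 and 283 CPM in macrophages and 746, 345 and 563 CPM in endothelium. Ier5, which assists HSF1, was at 446, 219 and 227 CPM in macrophages, 419, 204 and 311 CPM in endothelium and 257, 170 and 125 CPM in fibroblasts, where it was the 1 immediate-early gene called lower at 2 months (0.487, 0.475 to 0.499). The NR4A orphan nuclear receptors are rapid responders of macrophages and vessels. Nr4a1 was at 133, 127 and 212 CPM in macrophages and 289, 267 and 433 CPM in mural cells, and Nr4a2 at 140, 154 and 116 CPM in fibroblasts. Neither was called in any comparison. Against the control, over whole classes, Nr4a3 was called in mural cells alone, at 22.7, 61.7 and 48.6 CPM, with ratios of 2.72 (2.24 to 3.32) and 2.14 (1.72 to 2.66).

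Genes that end the response were split. Nfkbia, the inhibitor that NF-kB induces to hold itself in the cytoplasm, was at 1397, 625 and 711 CPM in fibroblasts, 2310, 1176 and 1431 CPM in endothelium and 2900, 1164 and 1532 CPM in macrophages, below the control at both times. In mural cells Nfkbia was at 505, 518 and 751 CPM. Zfp36, which binds and destabilises cytokine mRNAs, followed the Egr1 shape in macrophages (764, 379 and 951 CPM) and endothelium (614, 274 and 674 CPM), and stood at 400, 245 and 640 CPM in mural cells. Btg2, an antiproliferative cofactor, was the 1 immediate-early gene called lower in all 4 classes at 1 week, where 1.80% of 10537 genes were. Its levels were 372, 182 and 271 CPM in fibroblasts, 587, 245 and 443 CPM in endothelium, 561, 251 and 700 CPM in mural cells and 289, 119 and 271 CPM in macrophages. Its relative Btg1 was called nowhere, and neither was Dusp1, a phosphatase that inactivates stress kinases, whose ratios to the control lay between 0.756 and 1.42.

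Dusp2, a nuclear phosphatase of ERK best known from activated leukocytes, ran against its group. It was at 99.5, 201 and 130 CPM in endothelium, 9.50, 35.4 and 12.9 CPM in mural cells and 71.5, 206 and 102 CPM in macrophages. The 1-week library was thus the highest in each, with ratios to the control of 2.02 (1.90 to 2.15), 3.73 (2.79 to 5.08) and 2.88 (2.68 to 3.11). In fibroblasts, where it was scarce at 4.18, 6.29 and 2.91 CPM, the interval of the ratio was 1.28 to 1.76. Dusp2 was the 1 immediate-early gene whose counting interval lay above the control in all 4 classes at 1 week, and 12 had intervals below it in all 4: Fos, Jun, Atf3, Egr1, Egr2, Ier3, Klf2, Klf4, Klf6, Dusp1, Zfp36 and Btg2. Of all 10537 genes compared in the 4 classes, 10.8% had intervals below and 13.1% above the control in all of them. At 2 months 2 were below the control in all 4 classes, Klf2 and Btg1, and 3 above it in all 4, Fosb, Fosl2 and Egr3. For all genes these shares were 5.89% and 7.38%, so the 2-month immediate-early counts were near those of all genes. Of the 11 heat-shock genes 4 had intervals below the control in all 4 classes at 1 week and 5 at 2 months. None had intervals above it in all 4 at either time. The shares of all genes include genes with few UMIs, which have wider intervals.

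**Figure D3:**
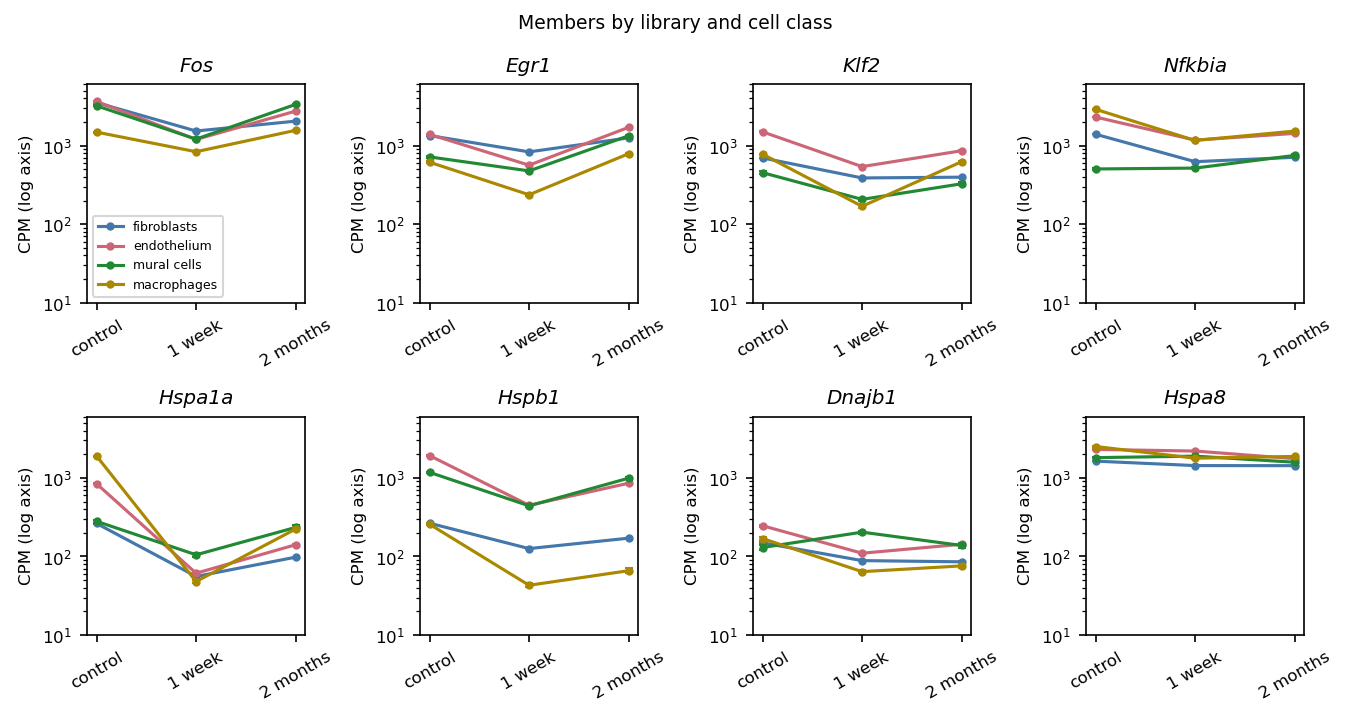
CPM of 4 immediate-early genes (top) and 4 heat-shock genes (bottom) in the control, 1-week and 2-month libraries on a log axis, 1 line per cell class, with 95% counting intervals. Fos and Egr1 dip at 1 week in every class, Hspa1a in macrophages goes from 1894 to 48.0 to 223 CPM, and Hspa8 stays within 2-fold.

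Among heat-shock genes the inducible HSP70 pair stood out. Hspa1a (chromosome 17, 34969190 to 34972156, minus strand, GRCm38) and Hspa1b (chromosome 17, 34956436 to 34959238, minus strand) are neighbouring, near-identical genes for the stress-inducible HSP70 chaperone, so reads could be divided between them by the counting, and neither should be read without the other. Hspa1a was at 1894 CPM in control macrophages, 48.0 at 1 week and 223 at 2 months, 39.4-fold lower (37.1 to 41.9) and 8.51-fold lower (8.17 to 8.86) than the control. Hspa1b in the same cells was at 651, 14.9 and 119 CPM, 43.6-fold (39.2 to 48.7) and 5.47-fold (5.17 to 5.79) lower. The copies thus showed the same order of libraries in macrophages. In endothelium Hspa1a was at 842, 61.2 and 141 CPM, 13.8-fold and 5.99-fold lower than the control, and Hspa1b at 233, 29.6 and 73.0 CPM. Fibroblasts held 263, 55.7 and 97.9 CPM of Hspa1a and 100, 25.0 and 55.5 CPM of Hspa1b. Mural cells differed least, at 280, 105 and 234 CPM of Hspa1a and 84.5, 43.1 and 101 CPM of Hspa1b, and at 2 months their Hspa1a level was 0.836 (0.776 to 0.901) of the control. There the order differed between the copies, with the control highest for Hspa1a and the 2-month library highest for Hspa1b. In the control library macrophages carried more Hspa1a than any other class, and at 1 week less than any other.

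The upstream sequences of this pair are shown because both genes had the same order of libraries in macrophages, endothelium and fibroblasts, though not in mural cells. Most heat-shock genes here also share the same element. Promoter sequences from RefSeq (GRCm38.p6) were matched for 31 of the 38 genes. Egr1, Egr3, Fosl1, Ier2, Myc, Hspa8 and Hsp90aa1 had none and were not searched for any element. The 250 bases upstream of Hspa1a (chr17:34972157-34972406, minus strand) and of Hspa1b (chr17:34959239-34959488, minus strand) were identical at 247 positions, or 98.8%, with 3 mismatches and no gap. They are given 5′ to 3′ up to the base before the start site, with the match to a heat shock element in capitals, beside those of Hspb1 (chr5:135887669-135887918, plus strand).

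Hspa1a: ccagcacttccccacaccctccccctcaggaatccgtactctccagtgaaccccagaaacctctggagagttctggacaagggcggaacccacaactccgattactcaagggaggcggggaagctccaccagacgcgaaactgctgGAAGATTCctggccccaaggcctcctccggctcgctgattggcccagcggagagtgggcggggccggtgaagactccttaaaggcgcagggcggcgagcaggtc
Hspa1b: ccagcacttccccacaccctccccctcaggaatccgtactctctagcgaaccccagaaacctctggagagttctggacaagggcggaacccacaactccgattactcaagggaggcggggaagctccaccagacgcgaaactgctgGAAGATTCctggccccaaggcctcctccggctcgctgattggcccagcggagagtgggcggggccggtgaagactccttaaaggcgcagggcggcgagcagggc
Hspb1: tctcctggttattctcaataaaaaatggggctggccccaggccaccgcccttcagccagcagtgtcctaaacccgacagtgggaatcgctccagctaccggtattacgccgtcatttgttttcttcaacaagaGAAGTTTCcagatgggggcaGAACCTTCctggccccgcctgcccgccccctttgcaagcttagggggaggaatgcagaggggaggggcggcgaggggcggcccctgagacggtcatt

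The element searched was GAANNTTC or TTCNNGAA, on both strands, in the 250 bases before the start site. Genes with several listed start sites counted as matched when any 1 of them was. It was found in 7 of the 9 heat-shock genes with a sequence (Hspa1a, Hspa1b, Hspb1, Hsph1, Dnaja1, Hspd1 and Hspe1), in 3 of 22 immediate-early genes (Jun, Fosl2 and Egr2) and in 12.8% of 32851 promoters, or 14.5% of all genes with a listed promoter. In Hspa1a and Hspa1b it lay 104 to 97 bases before the start, and in Hspb1 at 117 to 110 and 97 to 90 bases. A longer form with 3 repeats in a row extends the searched letters by 1 more unit at the same spacing. It was present in 0.466% of promoters, or 0.514% of all genes with a listed promoter. Among the heat-shock genes it was in Hspd1 and Hspe1, the mitochondrial pair that is transcribed in opposite directions from shared sequence. The stretch upstream of Hspe1 (chr1:55088053-55088082, plus strand) is shown because these genes, with the fuller element, were called in no comparison:

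Hspe1: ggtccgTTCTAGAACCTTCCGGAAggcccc

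Immediate-early promoters were searched for the CArG box, the SRF site, on both strands. It was found in 2 of the 22 with a sequence, Zfp36 and Egr2, and in 1.47% of all promoters. For Egr2 a different box, CCATATATGG, was found upstream of 3 other listed start sites. Zfp36 at chr7:28379267-28379296 on the minus strand and Egr2 at chr10:67537484-67537513 on the plus strand are shown with 1 box each in capitals, as the 2 genes with a match:

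Zfp36: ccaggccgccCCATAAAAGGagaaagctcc
Egr2: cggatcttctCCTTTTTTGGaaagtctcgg

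The cyclic AMP element TGACGTCA was found in 2 of 22, Btg2 and Dusp1, and in 1.55% of all promoters. The AP-1 site TGANTCA was in none of the 22, in Bag3 among the heat-shock genes, and in 6.75% of all promoters, or 7.82% of all genes. A match in these windows is a match of letters and says nothing of binding.

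Hspb1, a small heat-shock protein that protects actin filaments, was called lower at 1 week in all 4 classes. It was at 1922, 448 and 855 CPM in endothelium and at 1176, 441 and 991 CPM in mural cells, the classes with most of it. Fibroblasts held 265, 126 and 171 CPM. The 1-week level was 4.29-fold (4.20 to 4.39) below the control in endothelium, 2.66-fold in mural cells and 2.10-fold in fibroblasts. The mural call depended on the mix of mural cells, since the ratio of 0.375 was 0.503 with subsets weighted to the control mix, short of 2-fold. In macrophages it was at 257, 43.0 and 65.9 CPM, 5.99-fold lower (5.57 to 6.43) at 1 week. The macrophage fold depended on which cells were admitted, since with stricter gates it was 12.6-fold and without called doublets 11.6-fold. The HSP40 co-chaperones, which deliver clients to HSP70, were lower in macrophages at both times. Dnajb1 was at 169, 64.1 and 75.9 CPM and Dnaja1 at 732, 293 and 303 CPM there, each called lower at both times. In mural cells Dnajb1 was above the control at 1 week, at 130, 204 and 138 CPM, with a ratio of 1.56 (1.44 to 1.71), and so was Bag3, an HSP70 exchange factor, at 79.6, 134 and 81.6 CPM. Hsp90aa1, the inducible cytosolic HSP90, was at 893, 480 and 440 CPM in macrophages and was called lower there at 2 months.

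The other chaperones of the group include housekeeping forms. Hspa8, the constitutive HSP70, supplied 41.2% of heat-shock UMIs in control fibroblasts and was at 1634, 1434 and 1431 CPM there, 2303, 2196 and 1758 CPM in endothelium, and 2509, 1781 and 1875 CPM in macrophages. Hspe1, the mitochondrial HSP10, was above the control at 1 week in fibroblasts (181, 260 and 210 CPM), endothelium (173, 222 and 164 CPM) and mural cells (216, 274 and 189 CPM). Its partner Hspd1, the mitochondrial HSP60, was at 134, 126 and 110 CPM in fibroblasts and 153, 128 and 105 CPM in macrophages. Hsph1, an HSP110 exchange factor for HSP70, was at 58.5, 37.3 and 33.3 CPM in macrophages. Hspa8, Hsph1, Bag3, Hspd1 and Hspe1 were called in no class or comparison, as were 5 of the 27 immediate-early genes (Fosl2, Nr4a1, Nr4a2, Dusp1 and Btg1). From 1 week to 2 months Hspa1a and Hspa1b were higher in every class, Hspa1b by 2.22-fold in fibroblasts, 2.47-fold in endothelium, 2.35-fold in mural cells and 7.98-fold (7.10 to 8.99) in macrophages.

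The makeup of each class differed between libraries, so the sums were also taken in subsets chosen by other genes, with each cell counted once and dividing cells taken out first. Fibroblasts with a UMI of Clic5 or Tspan15, genes of the synovial lining, were 48.4% of control, 9.63% of 1-week and 37.0% of 2-month fibroblasts, and their immediate-early sums were 16291, 9385 and 9583 CPM. Those with Pi16 or Dpp4, genes of fibroblast progenitors, held 17486, 11333 and 13792 CPM. Cells with the division genes Mki67 or Top2a held 15809, 8620 and 9818 CPM, and the remainder 21269, 11415 and 17758 CPM. The 1-week sum was thus 0.537 to 0.648 of the control in each of these 4 subsets, beside 0.558 for all fibroblasts. At 2 months the subsets parted: the ratio was 0.588 in the Clic5 or Tspan15 cells, where the 2-month level was 1.02 times that at 1 week, and 0.835 in the remainder. Fibroblasts with a UMI of Acan or at least 3 of Col11a1 numbered 3 in the control, too few to compare, and 1995 at 1 week. Hspa1a ratios at 1 week were 0.187 to 0.265 over the 4 subsets.

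In endothelium the 1-week immediate-early ratio was 0.571 in cells with the venular genes Selp or Ackr1 and 0.453 in the rest. Macrophages with Vsig4, a gene of resident lining macrophages, were 53.7% of control macrophages and 2.44% (48 cells) at 1 week, so at 1 week only cells without it could be compared. In those cells the 1-week ratio was 0.434 for immediate-early and 0.394 for heat-shock genes, and Hspa1a went from 1982 to 46.6 CPM, 42.5-fold. At 2 months the heat-shock ratio was 0.468 with and 0.433 without Vsig4. The low-level gene Nr4a3, not called in macrophages as a whole against the control, parted between them at 2 months. Its ratio was 3.19 (2.48 to 4.17) without Vsig4 and 0.609 (0.425 to 0.857) with it. Nr4a1 was at 2.00 (1.82 to 2.19) and 1.08 (0.965 to 1.20).

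Mural cells with at least 3 UMIs of the smooth muscle myosin gene Myh11 were 87.2% of the class in the control, and 47.7% and 85.1% at 1 week and 2 months. Within them the immediate-early sum was 12515 CPM in the control, and 11125 and 17882 at 1 week and 2 months, ratios of 0.889 and 1.43. In the remaining mural cells it was 18910, 10020 and 15078 CPM, ratios of 0.530 and 0.797. The higher 2-month level was therefore seen in the Myh11 cells, whereas the remaining cells, 89, 372 and 63 in number, had the order found in the other classes. In the Myh11 cells Egr1 was at 640, 442 and 1368 CPM and Fosb at 337, 541 and 908 CPM. Btg2 and Klf2, called lower in all mural cells at 1 week, were at ratios of 0.522 and 0.512 in the Myh11 cells, short of 2-fold. The 1-week immediate-early median log2 ratio was 0.13 in the Myh11 cells (all genes 0.00) and -0.69 in the remaining cells (all genes 0.06). For heat-shock genes it was 0.00 and -0.31. Jun was at 1-week ratios of 1.05 in the Myh11 cells and 0.502 in the remaining cells, and Junb at 1.59 and 0.631. The chart of subset sums places the sums on 1 scale.

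**Figure D4:**
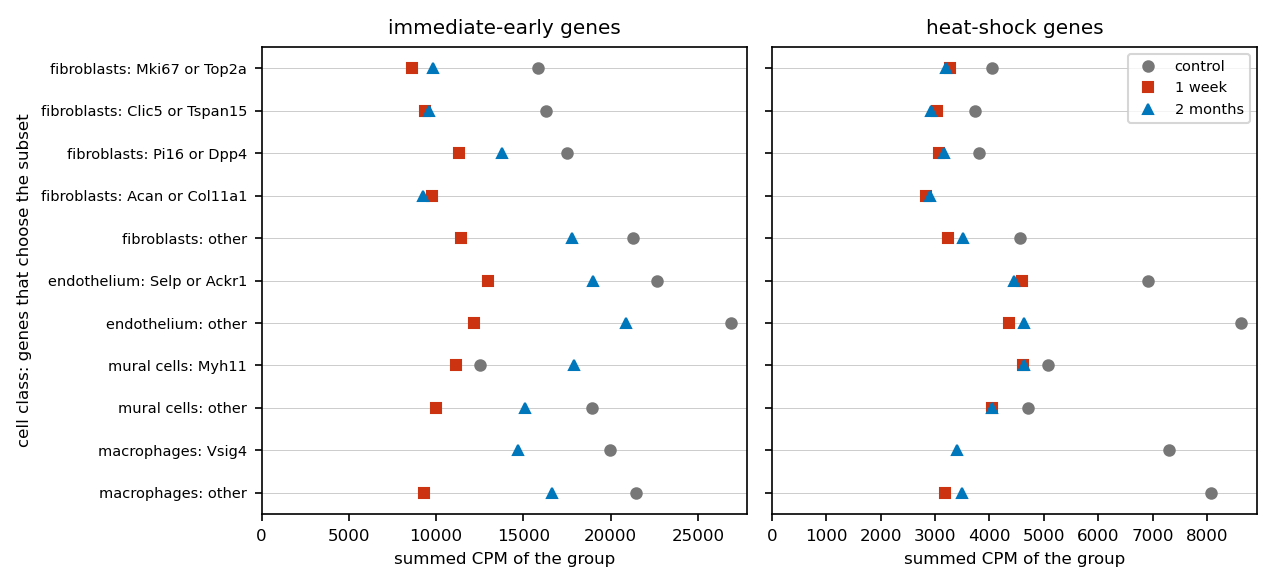
Summed CPM of immediate-early (left) and heat-shock (right) genes in subsets of each class, labelled by the genes that choose them, for the control (grey circles), 1-week (red squares) and 2-month (blue triangles) libraries; subsets of under 50 cells are not drawn. The control is highest in every drawn row that has all 3 libraries, except for immediate-early genes in Myh11 mural cells, where the 2-month sum of 17882 CPM exceeds 12515 CPM.

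The number of UMIs per cell was also compared. When each cell was thinned to 2000 UMIs, leaving out 4 to 87 shallower cells per class and library, the median number of immediate-early UMIs in macrophages was 42 in the control, and 17 and 31 at 1 week and 2 months. The 1-week 90th percentile of 33 lay below the control median there. Medians were 31, 16.5 and 21 in fibroblasts and 46, 24 and 35.5 in endothelium. Mural medians were 20, 20 and 32, with a wider spread in the control (quartiles 6 and 41) than at 1 week (12 and 32). Heat-shock medians were 13, 6 and 6 in macrophages, 13, 9 and 9 in endothelium, 7, 6 and 6 in fibroblasts and 9, 8 and 8 in mural cells. The upper tail of heat-shock UMIs in endothelium was the longest in the control, with a 90th percentile of 31 against 15 in both operated libraries.

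**Figure D5:**
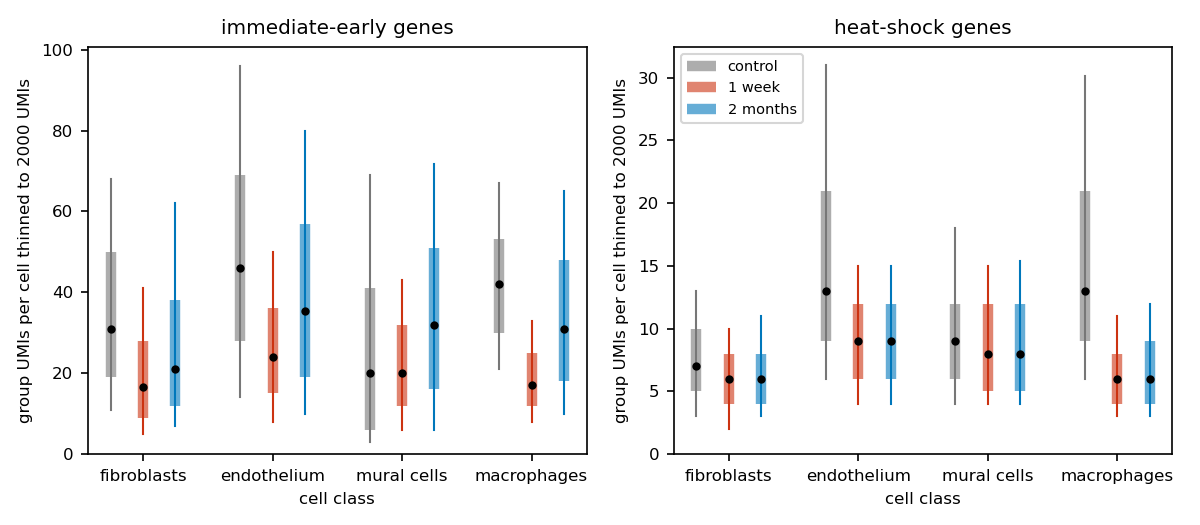
UMIs of the immediate-early (left) and heat-shock (right) groups per cell after thinning to 2000 UMIs; dots are medians, thick bars the quartiles and thin lines the 10th to 90th percentiles of cells, which are not replicates. In macrophages the 1-week immediate-early bar lies below the control bar (medians 17 and 42), and heat-shock medians of the operated libraries coincide at 6.

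The share of macrophages with any Hspa1a UMI at this depth was 78.0% in the control, and 8.83% and 26.5% at 1 week and 2 months, or 93.7%, 26.3% and 62.2% without thinning. No class known to lack Hspa1a was available to measure free RNA. In endothelium the thinned shares were 48.7%, 8.70% and 18.9%, in fibroblasts 33.8%, 9.76% and 17.4%, and in mural cells 29.5%, 17.7% and 30.0%. Across single cells the immediate-early and heat-shock sums were correlated with a Spearman rho of 0.59 in control endothelium (1183 cells), 0.31 at 1 week and 0.43 at 2 months. The rho was 0.45, 0.35 and 0.40 in fibroblasts and 0.31, 0.14 and 0.11 in macrophages. These cells share 1 library per value and sparse counts.

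Other quantities moved with the libraries, and their part in the results was not tested. The median mitochondrial share in fibroblasts was 1.58%, 3.71% and 3.40%, in endothelium 2.06%, 3.78% and 3.68%, in macrophages 1.91%, 2.95% and 4.18%, and in mural cells 4.73%, 4.30% and 5.70%. With a second marker required in each gate, chosen after these values were seen, the immediate-early sums were 20671, 9288 and 16890 CPM in macrophages, 27432, 13612 and 21931 CPM in endothelium and 13110, 10846 and 17958 CPM in mural cells, in the same order as before. With stricter gates Hspa1a in macrophages was at 2171, 45.6 and 232 CPM.

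Related genes outside the 38 were compared in the same way. Of 46 other early-response genes 45 could be compared in fibroblasts at 1 week, of which 8 were called lower and 3 higher, with a median log2 ratio of -0.29, where 10.6% of all genes were called lower and 11.6% higher. The interferon-response factor Irf1 (196 to 44.7 CPM), the cytokine-signal inhibitor Socs3 (332 to 105 CPM) and Cebpd (390 to 130 CPM), an acute-phase transcription factor, were lowest, and the ERK phosphatase gene Dusp6 was highest (ratio 2.24, 2.09 to 2.42). At 2 months 1 was called in each direction, against 4.15% lower and 5.44% higher of all genes, and Irf1 was at 89.6 CPM. In macrophages at 1 week 14 of 44 were called lower and 2 higher, against 9.96% lower and 8.66% higher of all genes. In endothelium at 1 week 7 of 44 were called lower and 1 higher (all genes 8.38% and 7.70%). Mural cells differed, with 7 of 44 called higher and 3 lower at 1 week (13.1% and 11.7%). At 2 months 5 were called higher and none lower in mural cells (4.96% and 3.39%). There 37 of 44 were above the control, where 49.2% of all genes were. Of 39 other chaperone genes 3 were called lower in fibroblasts at 1 week and none higher, with Cryab, a small heat-shock protein, at 232 to 94.3 CPM and its relative Hspb8 at 194 to 82.5 CPM, while the median log2 ratio was -0.16. Among all genes 10.6% were called lower, so in fibroblasts the count is no excess over all genes. In fibroblasts at 2 months none of the 39 was called. Below the control there, by any amount, were 22 of the 39 at 1 week and 28 at 2 months, where 48.2% and 47.3% of all genes were. In the other classes at 1 week 4 of 39 were called lower in endothelium (all genes 8.38%), 7 in mural cells (11.7%) and 6 in macrophages (9.96%). At 2 months 2 were called lower in endothelium (2.82%), 0 in mural cells (3.39%) and 3 in macrophages (3.93%). None was called higher at either time. By any amount 25, 27 and 31 of the 39 were below the control at 2 months in endothelium, mural cells and macrophages. Their median log2 ratios were -0.09, -0.10 and -0.16, beside 0.06, -0.01 and 0.01 for all genes.

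Most genes of the upstream regulators were within 2-fold. Of 13 such genes 1 was called in fibroblasts at 1 week, the SRF partner Elk3 (32.7 to 69.8 CPM, higher), and none at 2 months. Of all genes 11.6% were called higher and 10.6% lower at 1 week, and 5.44% and 4.15% at 2 months. Hsf1, the heat-shock factor, was at 24.9, 17.9 and 18.9 CPM in fibroblasts. Among 15 genes of oxidative and ATF4 stress 3 were called lower and 2 higher in fibroblasts at 1 week, against the same 10.6% and 11.6% of all genes. The metallothionein Mt1 (2521 to 1245 CPM) and the stress factor Atf5 (235 to 54.2 CPM) were lower, and the mTORC1 inhibitor Ddit4 (20.3 to 86.6 CPM) and haem oxygenase Hmox1 (32.9 to 115 CPM) were higher. By direction alone 10 of the 15 were below the control in fibroblasts at 1 week and 13 at 2 months, where 48.2% and 47.3% of all genes were below it. Their median log2 ratios were -0.21 and -0.25. In endothelium the medians were -0.35 and -0.34, beside 0.02 and 0.06 for all genes. Mural cells went the other way, with medians of 0.23 and 0.20 beside 0.00 and -0.01 for all genes. In macrophages they were 0.00 and -0.43, beside -0.06 and 0.01.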

How the data were processed

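The deposited matrices hold raw UMI counts per gene and cell barcode. The version of Cell Ranger is 5.0.0 (control, 1 week) or 5.0.1 (2 months) per the file headers, and 6.0.1, with mm10, per the submitters' processing notes. From these counts, UMIs were summed per class and library over the cells kept (500 genes or more, mitochondrial share of 10% or less; 5272837 to 97612131 UMIs per sum) and expressed as CPM, with exact Poisson intervals, and exact conditional binomial intervals for ratios. A call needed a 2-fold ratio and 50 UMIs in the 2 sums together. No test was made, since each group is 1 library. Doublets stayed in and were left out in an alternative (Scrublet in scanpy 1.11.5, 313, 507 and 460 calls). The calling step was tested on simulated data. The genes, related lists, classes and subsets were chosen with earlier results of these data known. Values are printed for genes called in at least 1 comparison and for those that lead their group, and for related lists from the 3 highest and lowest in fibroblasts. Promoter sequences are RefSeq's and gene positions GENCODE's. Python 3.11.15, numpy 2.4.6, scipy 1.17.1 and pandas 2.3.3 were used.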

Additional observations from a re-analysis of the deposited data

Results flagged for a closer look

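Some genes differed from the control in opposite directions in different cell classes. None of these differences between classes was tested, because each group is 1 library. Fosl1 at 1 week was at a ratio of 4.87 in mural cells and 0.43 in macrophages. Egr3 at 1 week was at 2.46 in mural cells and 0.496 in endothelium. The summed immediate-early level at 2 months was 1.32 times the control in mural cells, but 0.684 in fibroblasts, 0.79 in endothelium and 0.78 in macrophages.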

How the results depend on the processing

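The 24 counts of called genes were recomputed under 11 other settings, 1 of them (a second marker in the gates) chosen after seeing the data. Each count here joins genes called higher and lower. The share of all genes called was not recomputed under these settings. Of 264 alternative counts 239 were within 1.5 times the reported one. None of the 1232 alternative values of the 112 called ratios lay on the other side of 1. Settings that changed only the fold or the minimum of UMIs kept these ratios as they were, so they could not move them. None of 264 alternative medians was counted as reversed, but medians close to the control could not be, whatever their sign. Of the 264 medians, 27 moved by at least 0.1 in log2. With 1.5-fold for a call, more genes were called, which says nothing of these genes against all genes. At 1 week against the control the immediate-early count in fibroblasts was 16 in place of 7, and the heat-shock count 5 in fibroblasts and 6 in mural cells. The mural 6 include Dnajb1 and Bag3, which were above the control. At 2 months against the control immediate-early counts were 11 in fibroblasts, 4 in endothelium, 9 in mural cells and 8 in macrophages, and heat-shock counts 4 in fibroblasts and 6 in endothelium. Between 1 week and 2 months immediate-early counts were 4 in fibroblasts, 15 in endothelium and 20 in macrophages, and the heat-shock count in fibroblasts 2. Weighting to the control mix used only subsets with at least 50 cells in both libraries. It left out the Acan or Col11a1 fibroblasts in comparisons with the control, and the Vsig4 macrophages in comparisons that include the 1-week library. The immediate-early count in fibroblasts at 1 week was 4 without mitochondrial, ribosomal and haemoglobin genes in the denominator and 4 with subsets weighted in this way to the control mix. At 2 months it was 3 in place of 1 with stricter gates and 3 with median-ratio scaling. In endothelium at 2 months thinned cells gave 0 in place of 2. In mural cells at 1 week the immediate-early count was 11 in place of 7 when cells needed 1000 genes and a mitochondrial share within 5%, and with weighted subsets the heat-shock count was 1 in place of 2, without Hspb1, and 1 in place of 3 between 1 week and 2 months. In macrophages at 2 months the immediate-early count was 3 in place of 1 with the stricter cell filter, 2 without doublets, 2 with thinned cells and 3 with weighted subsets. The cause of these moves was not tested. Among single genes 7 alternative ratios moved by over 1.5 times, among them Fosl1 in mural cells between 1 week and 2 months (0.372, or 0.657 with the stricter cell filter) and, with stricter gates, Egr1 (3.33 to 5.03) and Klf2 (3.70 to 5.68) in macrophages. No paired analysis was possible because each group is 1 library, and no library could be left out.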
